A study of Mus musculus with 6 samples.

Results

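Mrgprg, Mrgprf, Mrgpre and Mrgprh encode 4 receptors of the Mas-related G protein-coupled receptor family. They were picked by gene symbol, and all 4 were among the 17419 genes measured in fibroblasts of the mouse enthesis, the place where tendon or ligament anchors to bone. The choice was made with the difference between diseased and un-diseased samples known: among the 282 genes called lower in diseased samples Mrgprg had the largest fold change. The difference in each of these 4 genes between the groups is therefore described and not tested. Mrgprg, Mrgprf and Mrgpre passed the filter on low counts, and Mrgprh did not.

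Mas-related receptors are named for their relative Mas1, a receptor linked to the angiotensin peptides. They span the cell membrane and pass signals to G proteins, mainly those that activate phospholipase C and release calcium. The family is best known in mouse sensory neurons, where several members take part in itch and pain, and in mast cells, where Mrgprb2 responds to basic peptides. Mrgprg, Mrgprf and Mrgprh are orphan receptors, for which no ligand is generally agreed. Mrgprf was first found in rat aorta, and rat Mrgpre can pair with Mrgprd when both are expressed in cultured cells.

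The diseased group held 3 samples and the un-diseased group 3 samples, each group numbered 1 to 3. All came from SKG mice, a strain with a mutation of Zap70 that is prone to autoimmune arthritis, so the un-diseased samples carry that mutation too. The labels do not give the animals' age or sex or say how disease came about. They explain neither NTS, in the diseased titles, nor UN, in the un-diseased ones, and leave unsaid whether each sample was its own animal or culture; p-values here reflect sample-to-sample spread alone, and that spread may be technical. Levels are CPM (counts per 1e6 counts of the library, scaled for library composition) or, where genes are compared with each other, RPKM (CPM per kilobase of exon).

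Total estimated counts were 17233409 to 18290873 in diseased and 16720612 to 17864667 in un-diseased samples, and 3 counts, the upper limit behind a 0, equalled 0.147 to 0.188 CPM, for counting error only. Fibroblast markers were abundant in every sample: the 9 genes summed to 114400 to 144200 CPM in diseased and 85710 to 120300 CPM in un-diseased samples. Their directions were mixed, 7 fold changes being positive and 2 negative. Col1a1 and Col3a1 were at log2 fold changes of 0.71 and 0.72, and Dcn was at -0.53. By edgeR 0 of the 9 passed, though 5 were below 0.05 before adjustment. The DESeq2 calls were 4 higher and 1 lower, where DESeq2 called 635 higher and 882 lower of all 13264 tested genes. A fit with the replicate number as a block gave 2 higher, Pdgfrb and Thy1, and 0 lower. Of 16 macrophage markers 15 had a positive fold change, and their summed level was 193.2 to 532 CPM in diseased and 46.5 to 270.1 CPM in un-diseased samples, with overlap; 0 were called by edgeR's quasi-likelihood test, which called 1.61% of all tested genes higher and 2.13% lower, and 5 had an unadjusted p under 0.05. DESeq2 called 2 of them higher, and with the replicate number as a block 15 were called higher, where 10.5% of all tested genes were called higher and 13.3% lower. Mural cell markers summed to 222.7 to 307.8 CPM in diseased and 237.4 to 280.8 CPM in un-diseased samples. DESeq2 called 1 of them higher and 1 lower. Of the 10 tested, edgeR called 1, Acta2, a smooth muscle actin that myofibroblasts also make, at 29.4 ± 6.23 CPM in diseased and 13.7 ± 2.13 CPM in un-diseased samples (adjusted p = 0.0292), a call kept in 1 of 6 fits with a sample left out, the one without un-diseased replicate 1 (adjusted p of 0.037 to 0.128 over the 6); the block called Acta2 and Tagln higher and Abcc9 lower. Endothelial markers summed to 42.4 to 58.7 CPM in diseased and 57.0 to 82.4 CPM in un-diseased samples, most of it Tek, which had 37.7 ± 5.27 CPM in diseased and 63.5 ± 14.3 CPM in un-diseased samples. Without Tek the sum was 10.6, 16.9 and 13.8 CPM in diseased and 9.59, 9.07 and 9.91 CPM in un-diseased samples, the other direction; edgeR called 0 of the 6 tested, 3 had an unadjusted p under 0.05, DESeq2 called 1 lower, and the block called Tie1 higher and Tek lower. Schwann cell markers summed to 229.4 to 252.2 CPM in diseased and 295.8 to 339.4 CPM in un-diseased samples, nearly all Pmp22. Without Pmp22 they summed to 14.5 to 23.4 CPM in diseased and 14.9 to 21.5 CPM in un-diseased samples. Of the 4 tested, edgeR called 0 and 1 had an unadjusted p under 0.05. DESeq2 called 1 of them lower, and the block called Pmp22 lower. The marker genes named here were picked out after their values were seen. Whether this RNA takes part in any difference below was not tested. In bulk RNA, fewer cells of a type and less RNA per cell cannot be told apart.

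Mrgprg and Mrgpre lie next to each other on chromosome 7 of GRCm38, both on the minus strand. Mrgprg (gene 381974) spans 143763710 to 143766993 and has 2 annotated transcripts of up to 2 exons, with a coding stretch of 867 bases before the stop codon. Mrgpre (gene 244238) starts 11.4 kb beyond it and spans 143778363 to 143784500, with 1 transcript of 2 exons and 930 coding bases. Mrgprf (gene 211577) lies on the plus strand of the same chromosome from 145300909 to 145309557, 1523 kb from Mrgpre by lower coordinate, and has 2 transcripts of up to 4 exons. Mrgprh (gene 80978) is a gene of 1 exon on the plus strand of chromosome 17, from 12876034 to 12877842. The 250 bases before the transcription start of the adjacent pair are shown because the pair differed in opposite directions between the groups; they are from RefSeq (GRCm38.p6), chr7:143766994-143767243 for Mrgprg and chr7:143784501-143784750 for Mrgpre, both read on the minus strand. Capitals mark CATTCC, a motif bound by TEAD factors, which act with YAP in the response to mechanical strain named in the title of the series.
Mrgprg: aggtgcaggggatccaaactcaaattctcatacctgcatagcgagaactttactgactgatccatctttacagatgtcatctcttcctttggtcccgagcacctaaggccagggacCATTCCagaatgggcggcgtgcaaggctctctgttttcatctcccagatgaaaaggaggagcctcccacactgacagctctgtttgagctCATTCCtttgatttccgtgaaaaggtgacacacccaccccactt
Mrgpre: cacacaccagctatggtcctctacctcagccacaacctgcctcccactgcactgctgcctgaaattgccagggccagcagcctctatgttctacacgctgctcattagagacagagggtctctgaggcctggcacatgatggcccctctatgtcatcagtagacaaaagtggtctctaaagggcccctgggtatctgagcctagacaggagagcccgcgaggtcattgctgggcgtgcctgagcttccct

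CATTCC, searched on both strands, stood 2 times before Mrgprg, with its first base 134 and 44 bases upstream of the start, 1 time before Mrgprh and 0 times before Mrgpre. The reference held no window for Mrgprf, so that receptor gene was not searched. Of 32851 promoter windows of the same 250 bases, 12.6% held it at least once and 0.992% at least 2 times. AACAAT, a motif of Sox factors such as the Sox5 of the series title, was in none of these 3 windows and in 9.42% of all. TGACTCA, the AP-1 motif, and TATAAA, the TATA box, were also in none of the 3, against 4.46% and 12.4% of all windows. These matches describe the letters of the windows and say nothing of binding. The windows of Mrgprg, Mrgpre and Mrgprh had 5, 4 and 3 CpG sites, against a median of 6 over all windows.

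Reads of these receptors could be told from those of other genes. Of the 50-base stretches of their GENCODE transcripts, 0% were shared with a transcript of another gene for Mrgprg, Mrgprf and Mrgprh, and 1.35% for Mrgpre, where Sp110 was the gene that shared most. Mrgpra2a and Mrgpra2b, relatives of the family with near-identical sequence, shared 87.5% and 81.2% of theirs. The estimated counts of the 4 receptors were whole numbers in all 6 samples. The span of Mrgpre holds 1 other annotated gene, the miRNA gene Gm22064 on the opposite strand; whether strand was used in counting is not given in the sources used here.

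Mrgprg was low in every diseased sample and well measured in every un-diseased one. It had 40, 43 and 25 estimated counts in diseased replicates 1, 2 and 3, against 500, 1091 and 335 in un-diseased replicates 1, 2 and 3. These were 1.96, 2.68 and 1.35 CPM in diseased samples and 26.04, 68.27 and 20.75 CPM in un-diseased samples. The groups did not overlap, and the highest diseased value stayed far under the lowest un-diseased one. The mean was 1.99 ± 0.665 CPM in diseased and 38.4 ± 26.04 CPM in un-diseased samples (SD, n = 3 each), which is a log2 fold change of -4.27 (SE 0.53). The un-diseased samples differed among themselves as well, the highest being 3.29 times the lowest. Without un-diseased replicate 2, the highest of them, the log2 fold change was -3.56; without any other single sample it was between -4.57 and -4.05.

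Within pairs of equal replicate number, Mrgprg was 13.3-fold lower in the diseased sample of pair 1, 25.5-fold lower in pair 2 and 15.4-fold lower in pair 3. Replicate 2 was the highest sample in both groups, and replicate 3 the lowest in both. With the replicate number as a block the log2 fold change was -4.15 and its SE 0.19. Among the 16874 genes with an annotated exon length, 38.2%, 42.5% and 34.4% had a lower RPKM than Mrgprg in diseased replicates 1, 2 and 3, against 84.9%, 93.5% and 80.4% in the un-diseased replicates. Mrgprg thus stood below the middle of the genes in diseased samples and well above it in un-diseased samples. The authors' deposited table, whose log2 ratio puts un-diseased on top, gives 4.28.

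**Figure D1:**
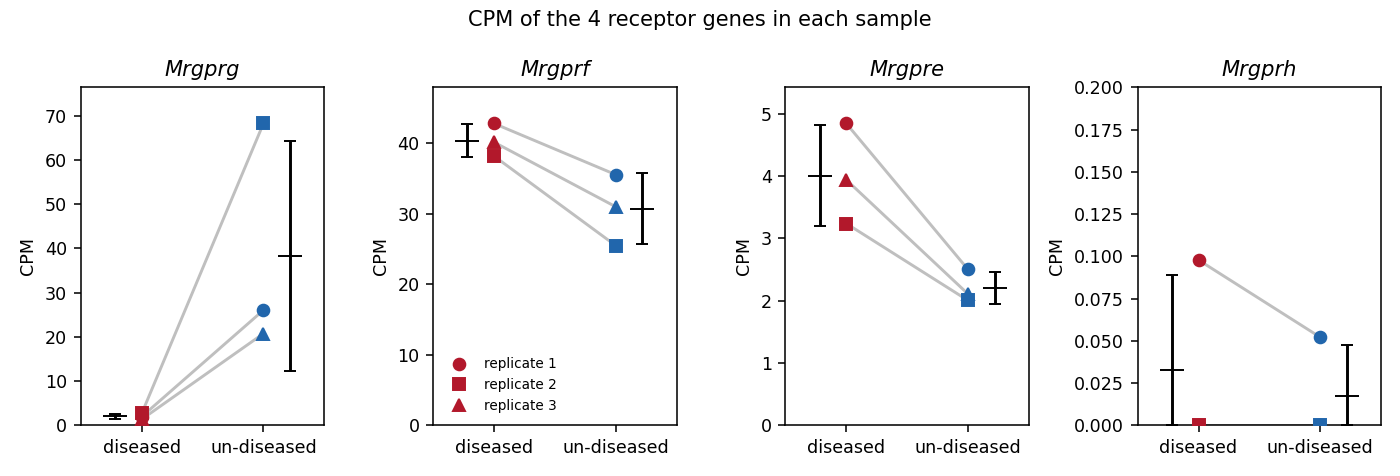
CPM (vertical axes, each starting at 0 with its own range) of the 4 receptor genes in the diseased (left, red) and un-diseased (right, blue) samples. Symbols give the replicate number, grey lines join samples of equal number, and black bars give the mean and SD of 3 samples, clipped at 0. Mrgprg is at 1.35 to 2.68 CPM in diseased and 20.75 to 68.27 CPM in un-diseased samples, while Mrgprf and Mrgpre are higher in the diseased sample of every pair.

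Mrgprf was the receptor gene with most reads in the 6 samples together, 3821 estimated counts, and it varied little. It had 42.8, 38.1 and 40.1 CPM in diseased replicates 1, 2 and 3, and 35.5, 25.5 and 31.0 CPM in un-diseased replicates 1, 2 and 3. Diseased samples were all above the un-diseased ones, by a narrow margin between diseased replicate 2 and un-diseased replicate 1. The mean was 40.4 ± 2.32 CPM in diseased and 30.65 ± 5.04 CPM in un-diseased samples (SD, n = 3 each), which is a log2 fold change of 0.40 (SE 0.13). The diseased sample was 1.204-, 1.498- and 1.296-fold higher in pairs 1, 2 and 3. Replicate 1 was the highest and replicate 2 the lowest in both groups, the reverse of the place that replicate 2 had for Mrgprg. Without single samples the log2 fold change was 0.28 to 0.51.

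Mrgpre was expressed at a low level. It had 99, 52 and 73 estimated counts in diseased replicates 1, 2 and 3, against 48, 32 and 34 in the un-diseased replicates, or 4.84, 3.24 and 3.94 CPM in diseased and 2.50, 2.00 and 2.11 CPM in un-diseased samples. All diseased values lay above all un-diseased ones. Its mean was 4.004 ± 0.804 CPM in diseased and 2.20 ± 0.263 CPM in un-diseased samples (SD, n = 3 each), which is a log2 fold change of 0.86 (SE 0.24). The diseased sample was 1.94-, 1.62- and 1.87-fold higher in pairs 1, 2 and 3, and leaving out single samples gave log2 fold changes of 0.70 to 0.99. Mrgpre, the neighbour of Mrgprg, thus had a difference of the opposite sign.

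Mrgprh was at the floor of the measurement. Diseased replicate 1 had 2 counts and un-diseased replicate 1 had 1, and the other 4 samples had 0, so the gene was not detectable above counting error at this depth and no fold change is given. With Mrgprh set aside, 3 of 3 receptor genes had groups that did not overlap in CPM, which held for 31.9% of the 13264 tested genes. By edgeR's quasi-likelihood test, 1 of the 3 was among the genes called lower (Mrgprg) and 0 among those called higher, and 3.73% of tested genes were called in either direction, 213 higher and 282 lower (417 higher and 288 lower with upper-quartile scaling). With the replicate block all 3 were among the called genes, Mrgprg lower and the other two higher, against 23.9% of all tested genes. Since the members were chosen on this same contrast, these counts describe them and support nothing.

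Levels per length of exon put the receptors in order. In diseased samples Mrgprf came first at 17.2 to 19.3 RPKM, then Mrgpre at 0.860 to 1.29 RPKM and Mrgprg at 0.678 to 1.35 RPKM, whose ranges overlapped. Mrgpre was above Mrgprg in diseased replicates 1 and 3 and below it in replicate 2. In un-diseased samples Mrgprg had 10.4 to 34.3 RPKM and Mrgprf 11.5 to 16.05 RPKM, again with overlap, and Mrgpre followed at 0.532 to 0.665 RPKM, below both in every sample. Mrgprf was above Mrgprg in 3 of 3 diseased and in 2 of 3 un-diseased samples, un-diseased replicate 2 being the exception, and the length of the longest transcript gave the same counts. Mrgprh came last in all samples, at no more than 0.0503 RPKM.

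The summed RPKM of the 4 genes was 21.6, 19.4 and 19.9 in diseased replicates 1, 2 and 3, against 29.8, 46.3 and 25.0 in the un-diseased replicates. Mrgprg made up 4.54%, 6.92% and 3.41% of that sum in diseased and 43.9%, 74.0% and 41.8% in un-diseased samples. Mrgprf made up 89.3%, 88.7% and 91.3% in diseased and 53.8%, 24.8% and 56.0% in un-diseased samples. Per length, diseased samples held mostly Mrgprf among these receptors, and un-diseased ones held Mrgprf and Mrgprg in like amounts or, in replicate 2, mostly Mrgprg.

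**Figure D2:**
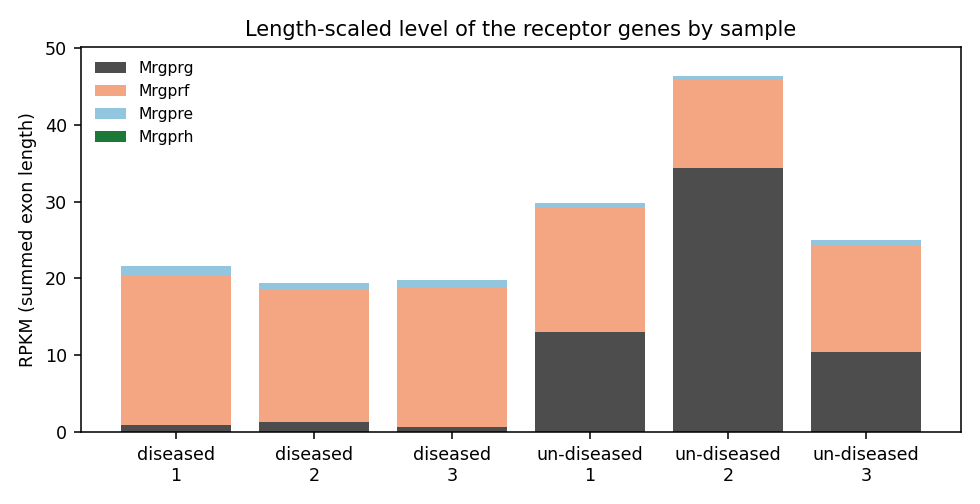
RPKM (vertical axis, from 0) of the 4 receptor genes stacked for each sample, diseased on the left and un-diseased on the right, with replicate numbers under the bars. Mrgprg (dark) is 3.41% to 6.92% of the stack in diseased and 41.8% to 74.0% in un-diseased samples; Mrgprh is too low to be seen.

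Over the 6 samples the log2 CPM of Mrgprg had a Pearson r of -0.90 with that of Mrgprf and -0.92 with that of Mrgpre, and Mrgprf and Mrgpre had 0.91 with each other. The points share the 2 groups and the replicate numbers, so these values are descriptions. Among 10339 genes that averaged 2 or more on the log2 CPM scale, those most like Mrgprg over the 6 samples were Eif2b3, a subunit of the translation initiation factor eIF2B (r = 0.999), the protein phosphatase gene Ppm1a (0.997), Reck, a membrane-anchored inhibitor of matrix metalloproteinases (0.997), the nuclear envelope gene Syne2 (0.996) and Smpd3, a neutral sphingomyelinase (0.996). With each group centred on its own mean their r lay between 0.962 and 0.990. They were picked for their r over the same 6 samples, which left little room for a low value here. The likeness was in pattern and not in size. Eif2b3 had 12.6 ± 0.321 CPM in diseased and 17.6 ± 1.45 CPM in un-diseased samples, giving a log2 fold change of -0.48, and Reck had 60.3 ± 1.60 CPM in diseased and 90.2 ± 7.79 CPM in un-diseased samples. Smpd3 came nearer in size, with 7.19, 7.34 and 5.29 CPM in diseased replicates 1, 2 and 3 and 33.9, 72.9 and 26.2 CPM in un-diseased replicates 1, 2 and 3, the same order of samples within each group as in Mrgprg.

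The genes most like Mrgprf were Fbxl19, an F-box protein gene (r = 0.999), Fgf11, an intracellular fibroblast growth factor homologue (0.997), the inositol phosphatase gene Inpp5b (0.995), the lysosomal potassium channel gene Tmem175 (0.995) and Gga2, an adaptor of the Golgi (0.995). Fbxl19 had 18.0, 15.1 and 16.7 CPM in diseased replicates 1, 2 and 3 and 14.0, 8.95 and 11.8 CPM in un-diseased replicates 1, 2 and 3. As for Mrgprf, replicate 1 was highest and replicate 2 lowest in both groups. With so few samples 220 genes had an r over 0.95 with Mrgprg and 226 with Mrgprf.

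The table held 36 other genes whose lower coordinate lies within 500 kb of that of a receptor gene, of which 22 were tested, and by edgeR 0 were called higher and 0 lower, against 3.73% of all tested genes. Their median log2 fold change was -0.10, beside 0.02 over all tested genes. At an unadjusted p under 0.05 there were 7 of the 22, beside 3685 of all 13264 tested genes. DESeq2 called 0 higher and 2 lower, Cdkn1c and Cars, where over all genes it called 635 higher and 882 lower. The block called 1 higher, Mrpl18, and 3 lower, Cdkn1c, Cars and Sod2, against 23.9% of tested genes with the block. Mrpl18 was lost in 3 of 3 blocked fits with a pair left out. These 4 names were chosen after their values were seen. Without un-diseased replicate 1, edgeR called Cdkn1c and Cars lower (adjusted p = 0.0302 for both) and Tnfrsf23 higher (adjusted p = 0.0487).

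On the other side of Mrgprg the nearest tested gene was Osbpl5, an oxysterol-binding protein gene, which had 53.1 ± 1.94 CPM in diseased and 57.8 ± 3.69 CPM in un-diseased samples, giving a log2 fold change of -0.12 (SE 0.09). Beyond Mrgpre, Nadsyn1, an enzyme of NAD synthesis, had 3.397 ± 1.13 CPM in diseased and 3.18 ± 1.03 CPM in un-diseased samples, and Dhcr7, which makes cholesterol from its precursor, had 7.61 ± 1.42 CPM in diseased and 5.07 ± 0.816 CPM in un-diseased samples. Farther out on the side of Osbpl5, Cdkn1c, the cell cycle inhibitor p57, had 42.5 ± 3.42 CPM in diseased and 69.2 ± 14.6 CPM in un-diseased samples (log2 fold change -0.70, SE 0.16), and its adjusted p was 0.0594 by edgeR and 0.00613 in the blocked edgeR fit. Cars, the cysteinyl-tRNA synthetase, had 28.5 ± 4.10 CPM in diseased and 47.3 ± 10.5 CPM in un-diseased samples, and its adjusted p was 0.0717 by edgeR and 0.00519 in the blocked edgeR fit. Near Mrgprh the insulin-like growth factor receptor gene Igf2r was abundant, at 317.2 ± 26.9 CPM in diseased and 279.6 ± 3.83 CPM in un-diseased samples. Mas1, which lies between Igf2r and Mrgprh, had 11 counts over the 6 samples, at 0.0533 ± 0.0495 CPM in diseased and 0.162 ± 0.133 CPM in un-diseased samples, and was not tested.

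**Figure D3:**
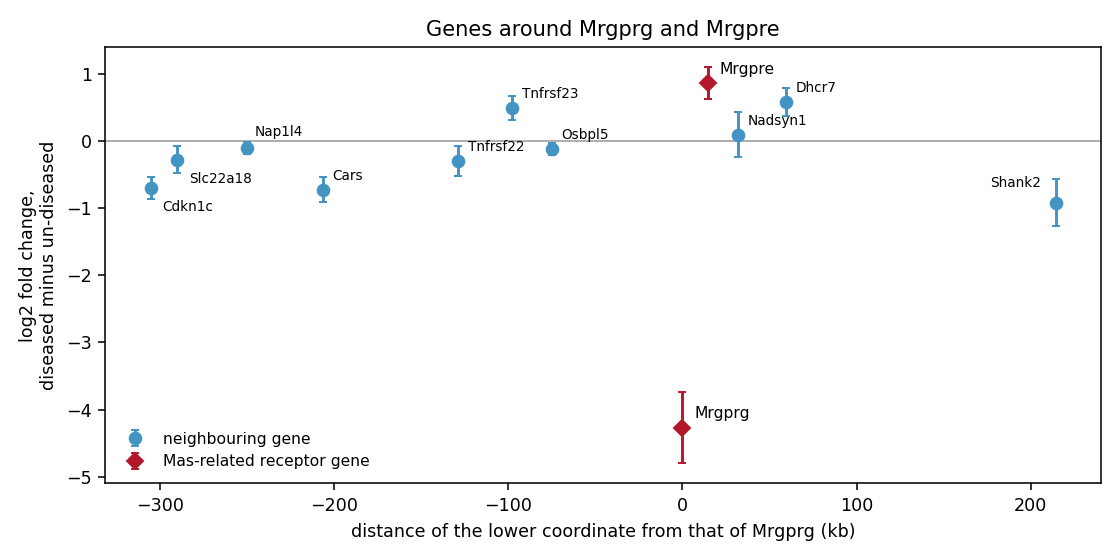
Log2 fold change, diseased minus un-diseased (vertical axis, bars give the SE of the fit), of Mrgprg, Mrgpre and the 10 tested genes within 500 kb, by the distance of the gene's lower coordinate from that of Mrgprg in kb (horizontal axis). Mrgprg is at -4.27 and Mrgpre at 0.86, and the neighbouring genes lie between -0.92 and 0.58.

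The other receptors of the family were scarce. Of 20 further symbols 8 were in the table and 2 passed the filter, Mrgpra2b and Mrgprb1, of which edgeR, DESeq2 and the blocked fit called 0 and 0 had an unadjusted p under 0.05. Mrgpra2a and Mrgpra2b had estimated counts that were not whole, such as 4.97 and 12.03 in diseased replicate 1, but whose sum was whole in every sample: 17, 72 and 10 in diseased replicates 1, 2 and 3, against 6, 33 and 1 in the un-diseased replicates. The reads were thus divided between these near-identical genes, and their single values are uncertain. Replicate 2 was highest in both groups. Neutrophil markers, a list of 12 added after these values were seen, followed the same order of replicates. Their summed levels were 55.5 to 261.7 CPM in diseased and 27.8 to 270.4 CPM in un-diseased samples, replicate 2 highest and replicate 3 lowest in both. The order was not particular to them: the summed macrophage markers, the summed mast cell markers and Mrgprg had it too. Of 11 tested neutrophil markers edgeR and DESeq2 called 0, and 0 had an unadjusted p under 0.05; the block called 4 higher, Csf3r, Mmp9, Cxcr2 and S100a9, and 0 lower, where it called 10.5% and 13.3% of all tested genes.

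Mrgprb1 had 4, 18 and 1 counts in diseased replicates 1, 2 and 3, and 21, 21 and 2 in un-diseased replicates 1, 2 and 3. Mrgprb2, the receptor of mast cells, had 1, 3 and 0 counts in diseased and 5, 6 and 0 in un-diseased samples. Tpsb2, a mast cell tryptase, had 0.978, 3.61 and 0.270 CPM in diseased and 4.27, 7.95 and 0.681 CPM in un-diseased samples, so that replicate 3 was lowest for all 3 genes in both groups. Of 9 mast cell markers listed in the data, 6 were tested and 0 called by edgeR or DESeq2, 0 having an unadjusted p under 0.05. With the block, 4 were called lower, Cpa3, Mcpt4, Tpsb2 and Cma1, all mast cell proteases. It called 1 higher, Hdc, which makes histamine and is also expressed in other myeloid cells. Over all tested genes the block called 13.3% lower and 10.5% higher. The list summed to 7.87 to 64.0 CPM in diseased and 5.88 to 56.1 CPM in un-diseased samples, most of it Hdc in the diseased ones. Of the 6 tested, 5 had a negative log2 fold change and 1, Hdc, a positive one, with a median of -1.13. Sensory neuron markers, 11 of 13 in the table, summed to 8.36 to 9.24 CPM in diseased and 8.98 to 11.15 CPM in un-diseased samples, and edgeR, DESeq2 and the block called 0 of the 6 tested, 1 having an unadjusted p under 0.05. The most abundant of them, Stmn2, averaged 3.10 CPM in diseased and 3.00 CPM in un-diseased samples, Isl1 1.54 CPM in diseased and 2.34 CPM in un-diseased samples, and Tubb3 1.72 CPM in diseased and 0.828 CPM in un-diseased samples, while Snap25, Calca, Calcb and Nefh were at or under 0.270 CPM in every sample. Of the 6 tested sensory neuron markers, Avil, P2rx3, Prph and Isl1 had negative log2 fold changes. Stmn2 and Tubb3 had positive ones, and the median was -0.62. The log2 fold changes of the tested markers lay between -1.46 and 1.35 for mast cells and between -1.04 and 1.06 for sensory neurons. The part of these cells in the Mrgprg difference was not tested.

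Other genes of the pathway supply or cut peptides that act on these receptors or on Mas1. Of 12 tested peptide precursors and proteases, 0 rose and 2 fell by edgeR, where 1.61% of all tested genes were called higher and 2.13% lower; the median log2 fold change was -0.66, beside 0.02 over all tested genes. Agt, the precursor of the angiotensins, fell to 6.51 ± 1.76 CPM in diseased, against 15.8 ± 1.98 CPM in un-diseased samples (log2 fold change -1.28, SE 0.22, adjusted p = 0.0312 by edgeR). Cpe, a carboxypeptidase that trims peptide hormones, fell to 20.4 ± 4.73 CPM in diseased, against 48.0 ± 5.31 CPM in un-diseased samples (-1.23, SE 0.18, adjusted p = 0.0254 by edgeR). With the block 2 rose and 6 fell, against 10.5% and 13.3% of all tested genes.

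The further genes called with the block were picked out after their values were seen. Of them DESeq2, fitted without the block, called Ace and Mme (adjusted p of 0.0015 and 0.0225) and not Penk, Adm, Tac1 or Ctss. Penk, the enkephalin precursor, which also gives peptides that activate sensory neuron members of the family in mouse, had 27.9 ± 15.2 CPM in diseased and 75.7 ± 41.7 CPM in un-diseased samples, and its adjusted p was 0.131 by edgeR and 0.0114 in the blocked edgeR fit. Ace, the angiotensin-converting enzyme, had 657.9 ± 167.9 CPM in diseased and 1269 ± 266.5 CPM in un-diseased samples, and its adjusted p was 0.0693 by edgeR and 0.00297 in the blocked edgeR fit. Adm, the adrenomedullin precursor, and Tac1, that of substance P, were also lower with the block (log2 fold changes -0.64 and -0.61). Mme, the peptidase neprilysin, was higher with the block at 139.6 ± 7.42 CPM in diseased and 86.0 ± 26.3 CPM in un-diseased samples. Ctss, the protease cathepsin S, had 44.8 ± 14.8 CPM in diseased and 12.7 ± 10.1 CPM in un-diseased samples and was higher in the blocked edgeR fit (adjusted p = 0.00382); it is abundant in macrophages, whose markers had a median log2 fold change of 1.22 in the same samples, and their part in it was not tested.

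Of 27 tested genes of G proteins, phospholipase C, calcium release and protein kinase C, 1 rose, 0 fell and 26 did not pass by edgeR, where 1.61% of all tested genes were called higher and 2.13% lower, and the median log2 fold change was 0.05, beside 0.02 over all tested genes. Gnao1, an alpha subunit of the Gi and Go class, rose to 16.5 ± 0.861 CPM in diseased, against 9.99 ± 1.44 CPM in un-diseased samples (0.72, SE 0.14, adjusted p = 0.042 by edgeR). The subunit Gnaq, through which many of these receptors signal, had 71.3 ± 10.3 CPM in diseased and 85.6 ± 4.21 CPM in un-diseased samples, and did not pass. With the block 2 rose, Gnao1 and Gng2, and 2 fell, Gna14 and Prkcb, 4 of 27 where 23.9% of all tested genes were called. Gna14 was lost in 3 of 3 blocked fits with a pair left out. DESeq2 without the block called Gng2 (adjusted p = 0.0216) and not Gna14 or Prkcb.

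Of 17 tested arrestins, receptor kinases and RGS proteins, which switch such receptors off, 1 rose, 0 fell and 16 did not pass by edgeR, beside the same 1.61% and 2.13% of all tested genes, and the median log2 fold change was 0.17. Rgs4, which speeds the shut-off of Gi and Gq proteins, rose to 17.5 ± 2.30 CPM in diseased, against 8.26 ± 1.75 CPM in un-diseased samples (1.09, SE 0.19, adjusted p = 0.0318 by edgeR). With the block 4 rose, Rgs4, Rgs10, Rgs19 and Arrb2, and 1 fell, Rgs16, 5 of 17 beside 23.9% of all tested genes. Rgs10 and Arrb2 were lost in 3 of 3 blocked fits with a pair left out and Rgs19 in 2 of 3. DESeq2 without the block did not call Rgs10 or Arrb2 (adjusted p of 0.0607 and 0.171). It did call Rgs19 and Rgs16 (adjusted p of 0.0166 and 0.0383). Of the ion channels that carry the signal in sensory neurons, 7 of 10 were in the table and 4 were tested, with 0 called by edgeR or the block, 0 by DESeq2 and 1 at an unadjusted p under 0.05; Piezo2, a mechanically gated channel and the most abundant of them, had 37.3 ± 4.50 CPM in diseased and 48.4 ± 5.13 CPM in un-diseased samples.

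The 4 edgeR calls in these lists, Agt, Cpe, Gnao1 and Rgs4, rested on the full set of samples. With single samples left out all kept their direction, but each was lost without diseased replicate 1, diseased replicate 3, un-diseased replicate 2 or un-diseased replicate 3, and all but Cpe were lost without diseased replicate 2 (adjusted p of 0.0319 to 0.171 over the 4 genes and 6 omissions). All 4 were called by DESeq2 and with the block.

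**Figure D4:**
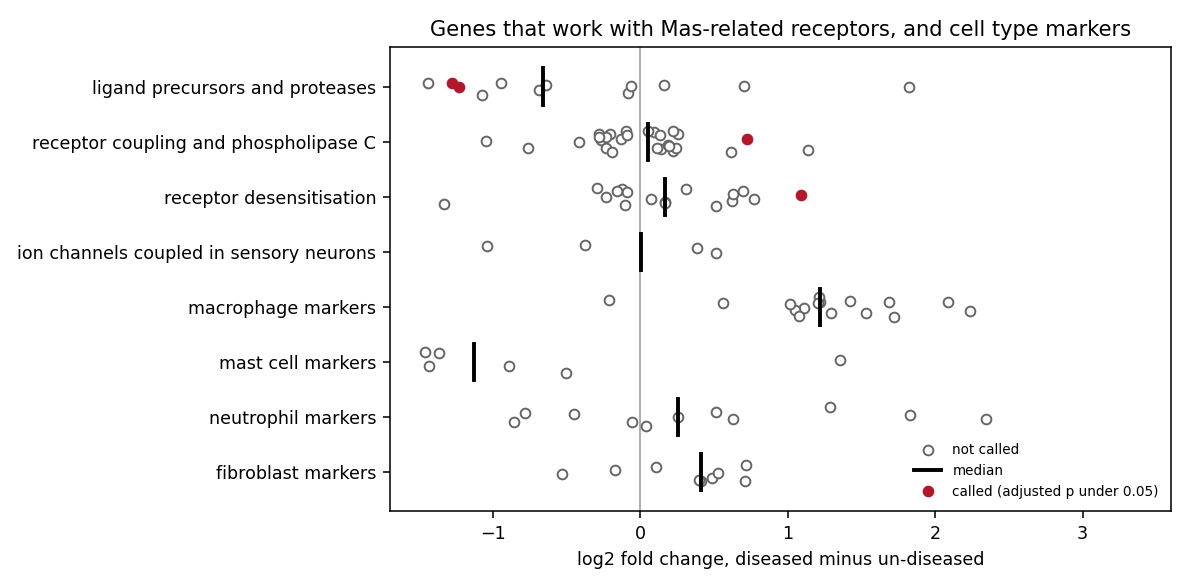
Log2 fold change, diseased minus un-diseased (horizontal axis), of the tested genes in 4 lists of genes that work with Mas-related receptors and in 4 lists of cell type markers. Each circle is a gene, filled where edgeR's adjusted p was under 0.05, and black bars are medians. The 4 filled genes are Agt and Cpe on the left and Gnao1 and Rgs4 on the right, and the macrophage median is 1.22.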

How the data were processed

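The deposited table held estimated counts per gene and sample, made by the authors, beside the authors' deposited log2 ratio (un-diseased on top) with its p-values and q-values; only the log2 ratio was used. The tools were DESeq2 1.4.5, HISAT2 2.0.4 and RSEM 1.3.1 and the build GRCm38, per the submitters' processing notes, which give them no role or order. Rounding to whole numbers before testing touched 9.61% of the estimated counts.

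The members and gene lists were chosen with earlier results of these data known. Genes were kept with filterByExpr at a least count of 10, which left 13264, scaled with TMM and compared by edgeR 4.0.16 (R 4.3.3), quasi-likelihood test, Benjamini-Hochberg adjustment over all tested genes, threshold 0.05. Fold changes are diseased minus un-diseased on the log2 scale, and the SE is the size of the fold change divided by the root of the F statistic. CPM are counts over the TMM-scaled library total. Exon lengths are the summed exons of GENCODE M21 (GRCm38), found for 16874 genes; gene positions are from RefSeq (GRCm38.p6), which held 17372 of the gene numbers. Patterns were compared on log2 CPM (prior count 2). Named were the 4 receptors, up to 6 called genes per list with the smallest adjusted p or, with none called, the most abundant, and the 5 genes with the highest r; genes named outside this rule are given as such or as landmarks.

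Samples of equal number deviated together from their group means, with correlations of 0.487, 0.578 and 0.276 for replicates 1, 2 and 3 over all tested genes. Between unequal numbers the correlations ran from -0.531 to 0.137, the highest being between diseased replicate 3 and un-diseased replicate 1. On these same data the numbers in the labels were taken to pair the samples. Samples of a group differed by more than sampling noise (chi-square per gene of 24.2 to 58.5). Alternatives were RLE and upper-quartile scaling, no filter beyond 1 count, a filter of 10 counts in at least 3 samples, DESeq2 1.42.0, limma-voom (limma 3.58.1), the replicate block, leaving out samples or pairs, a threshold of 0.01, other windows and lengths, and a prior count of 0.5. The steps were tested on simulated data, with changes planted only in well-measured genes and no replicate effect in the simulated means. That test therefore did not cover genes with as few counts as Mrgpre or the shared deviations of samples of equal number.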

Additional observations from a re-analysis of the deposited data

How the results depend on the processing

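The log2 fold changes of Mrgprg, Mrgprf and Mrgpre kept their sign and stayed within 1 SD of the spread between replicates under all 16 other fits. Leaving out single samples gave -4.57 to -3.56 for Mrgprg, 0.28 to 0.51 for Mrgprf and 0.70 to 0.99 for Mrgpre, and the replicate block gave -4.15, 0.41 and 0.86. Among the named genes of the 5 lists and the neighbours, the block changed no other call than those given beside them. The genes picked for their pattern were left out of this comparison. The order of Mrgprf and Mrgprg did not depend on the length used, and the 5 genes most like each of Mrgprg and Mrgprf were the same with a prior count of 0.5.

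Counts of calls depended on the processing, and the cause was not tested. Over all genes 213 were higher and 282 lower, against 417 higher and 288 lower with upper-quartile factors, 635 and 882 with DESeq2, 1397 and 1770 with the replicate block, and 2 and 2 at a threshold of 0.01. Leaving out single samples gave 2 to 354 higher and 3 to 721 lower, each of the 6 omissions moving both counts by over 1.5 times; the lowest came when diseased replicate 3 was dropped and the highest when un-diseased replicate 1 was; the block with a pair left out gave 1013, 809 and 426 higher and 1556, 1274 and 583 lower for pairs 1, 2 and 3. The 5 lists together had 2 higher and 2 lower genes, against 5 and 4 with DESeq2, 8 and 9 with the replicate block, 0 and 0 at 0.01, 0 to 3 higher and 0 to 4 lower without single samples, and 3 to 8 higher and 5 to 10 lower with the block and a pair left out. The neighbouring genes had 0 and 0, against 0 higher and 1 lower (Cdkn1c) with no filter beyond 1 count, 0 and 2 with DESeq2, 1 and 3 with the block, 0 to 1 higher and 0 to 2 lower without single samples, and 0 to 3 higher and 2 to 3 lower with the block and a pair left out; windows of 250 and 1000 kb gave 0 calls by edgeR. Depth limited Mrgprh and most other Mas-related receptors, at or near the worth of 3 counts.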
